A study of Homo sapiens with 6 samples.

Results

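The genes described here were 10 genes of the NF-kB pathway, for subunits of this transcription factor, regulators that it induces and chemokines that call in leukocytes. They were chosen by gene name from the mRNA table of OE19 cells, and all 10 of the 10 listed genes were among its 13345 rows. Of these, 6 encode NF-kB subunits and feedback regulators (NFKB1, NFKB2, RELB, NFKBIA, TNFAIP3 and BIRC3), and 4 encode chemokines made by epithelia (CXCL1, CXCL2, CXCL3 and CCL20). OE19 is an established cell line derived from an oesophageal adenocarcinoma. Messenger RNA was sequenced in 6 samples of OE19 cells from 3 independent experiments, each with 1 sample per treatment. In the control group (n = 3), cells were transfected with Negative Control A, a miRCURY LNA Power inhibitor oligonucleotide used as the control. In the inhibitor group (n = 3), they were transfected with the miRCURY LNA Power inhibitor of miR-451a. The comparison addresses which mRNAs differ after inhibition of miR-451a in a cell line studied for its resistance to radiation. The level of miR-451a itself is not measured in an mRNA table, so inhibition was not checked here. Irradiation of the cells that were sequenced is not stated in the sources used here, and no stimulus of NF-kB was part of the design.

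NF-kB proteins are dimers of the Rel family that are held in the cytoplasm by inhibitor proteins until a receptor of the TNF, interleukin-1 or Toll-like family activates the kinases that release them. In the nucleus they switch on genes of inflammation and survival, and among the first of these are genes for their own inhibitors, which end the response. Epithelial cells also answer by secreting chemokines that attract neutrophils and lymphocytes, so the mRNAs of both kinds are widely used as a readout of NF-kB activity.

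No difference in these genes passed the test. After inhibition of miR-451a, 5 of the 10 members were higher and 5 were lower, and 0 had an adjusted p under 0.05. NFKBIA, which encodes the best known NF-kB inhibitor, had the only pair of groups that did not overlap, with a mean 21.6% lower in the inhibitor samples, where 2.9% of all tested genes had inhibitor values entirely under the controls. The estimates of the 3 close relatives CXCL1, CXCL2 and CXCL3 differed in sign, but each 95% interval included 0. How reads that fit more than 1 of them were counted is not known. BIRC3 was highest in experiment 1 and lowest in experiment 3 in both groups. RELB and CXCL1 also kept 1 order in both groups, highest in experiment 2 and lowest in experiment 3. The share of all genes that kept an order was not counted.

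The short stretches of promoter that follow are shown because a match to the NF-kB motif was found before a start of every member that had a promoter entry. RefSeq promoters of GRCh38.p14, which run from 250 bases before an annotated start of transcription to 50 bases after it, were searched on both strands for the 10-base NF-kB consensus. Promoters were found for 9 of the members, and all 9 held at least 1 match, in 10 of their 12 promoters. Over the whole set, 3956 of 35116 promoters of the same length held a match (11.3%), or 3619 of 27305 genes (13.3%). RELB was not matched to a promoter. A match describes letters only and not a bound site. Each stretch below gives 10 bases on either side of the match, 5′ to 3′ on the strand of the gene, with the match in capitals. Where a gene had several matches, 1 is shown.
CXCL1: ctggaactccGGGAATTTCCctggcccggg
CXCL2: ctggagctccGGGAATTTCCctggcccggg
CXCL3: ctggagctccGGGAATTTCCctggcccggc
CCL20: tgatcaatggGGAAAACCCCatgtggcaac
NFKBIA: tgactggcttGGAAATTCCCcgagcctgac
NFKB1: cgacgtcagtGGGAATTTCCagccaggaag
NFKB2: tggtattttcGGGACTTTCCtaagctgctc
TNFAIP3: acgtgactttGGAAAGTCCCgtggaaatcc
BIRC3: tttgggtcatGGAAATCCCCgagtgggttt

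The stretches of CXCL1 (chr4:73869304-73869333, plus strand), CXCL2 (chr4:74099254-74099283, minus strand) and CXCL3 (chr4:74038749-74038778, minus strand) carry the same 10-base match. The match began at position -79, -78 and -79 from the start, counted on the strand of each gene. Over the 30 bases shown, CXCL1 and CXCL2 shared 29, CXCL2 and CXCL3 shared 29, and CXCL1 and CXCL3 shared 28. In each of these 3 promoters the consensus also matched the opposite strand, shifted by 1 base. The stretch of CCL20 lies at chr2:227813753-227813782 (plus strand), with a match to the opposite strand that began at -79, and that of NFKBIA at chr14:35404811-35404840 (minus strand), with a match to the opposite strand at -81. The stretch of NFKB1 lies at chr4:102501300-102501329, NFKB2 at chr10:102395674-102395703, TNFAIP3 at chr6:137867182-137867211 and BIRC3 at chr11:102317275-102317304, all on the plus strand. Their matches began at -49, -21, -67 and -199, and those of TNFAIP3 and BIRC3 are to the opposite strand. NFKB2 had matches in 2 of its 3 promoters and NFKB1 in 1 of its 2, and TNFAIP3 and BIRC3 had a second match each, at -55 and -135.

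**Figure D1:**
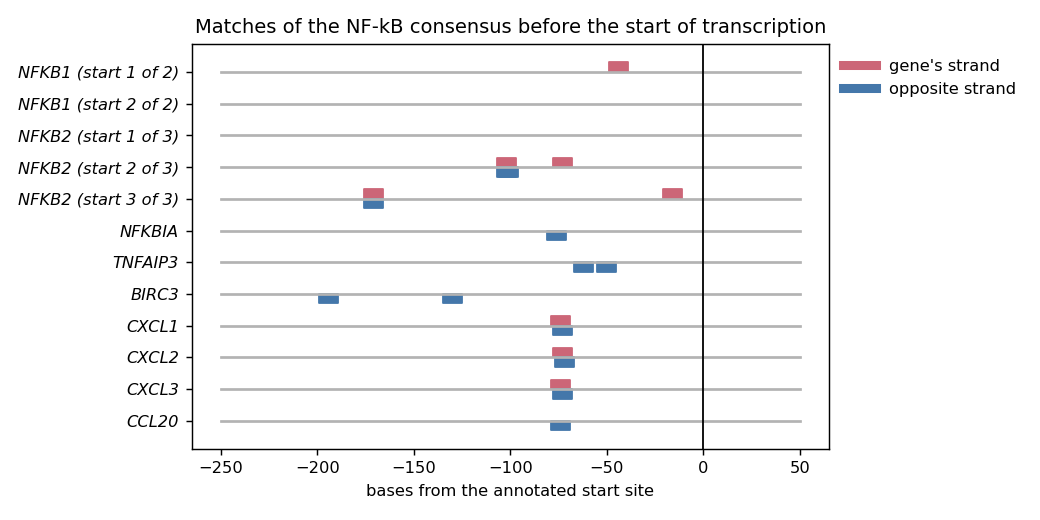
Positions of NF-kB consensus matches in RefSeq promoters of the members; the horizontal axis is the distance in bases from the annotated start of transcription, each row is 1 promoter, red boxes are matches on the strand of the gene and blue boxes on the opposite strand. The matches of CXCL1, CXCL2, CXCL3, CCL20 and NFKBIA begin between -81 and -77, those of BIRC3 and some of NFKB2 lie farther out, and 1 promoter each of NFKB1 and NFKB2 holds none.

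Values are the deposited normalized values per gene, which are counts that the authors adjusted for GC content and gene length within each sample and then scaled between samples. They are compared between samples for 1 gene, not between genes. In RNA from a whole culture, fewer cells that make an mRNA and less of it per cell cannot be told apart. Differences are inhibitor minus control on the log2(value + 1) scale, with the standard error (SE) from limma, fitted to the 12723 genes whose mean value was 10 or more, and p-values were adjusted over all of them with the Benjamini-Hochberg method. All 10 members passed this filter. Over all genes, 0 of 12723 (0%) had an adjusted p under 0.05, the smallest being 0.899, and 119 (0.935%) had an unadjusted limma p under 0.05, of which 68 (0.534%) were lower in the inhibitor samples. DESeq2 and edgeR also gave 0 genes after adjustment, with 250 and 163 at an unadjusted p under 0.05. Sums of adjusted counts ran from 14084387 to 18726440 per sample. The third inhibitor sample stood apart: 1373 of the 11095 genes with mean values of 50 or more were more than 2-fold away from the median of the other samples, against 62 to 214 in the others. Of 12 markers of columnar epithelium, 11 were in the table and were tested, with sums of 106081 to 131452 per sample. Among leukocyte markers, the table held LYZ, which glandular epithelia also make, at 17005 to 20095, and CSF1R, at 1.07 to 19.7, whereas PTPRC, CD3E and CD14 were not listed. Of 12 fibroblast and endothelial markers, 3 were listed (COL1A1, at 246.7 to 338.0, DCN, at 2.02 to 7.27, and VWF, at 1.03 to 31.1).

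**Figure D2:**
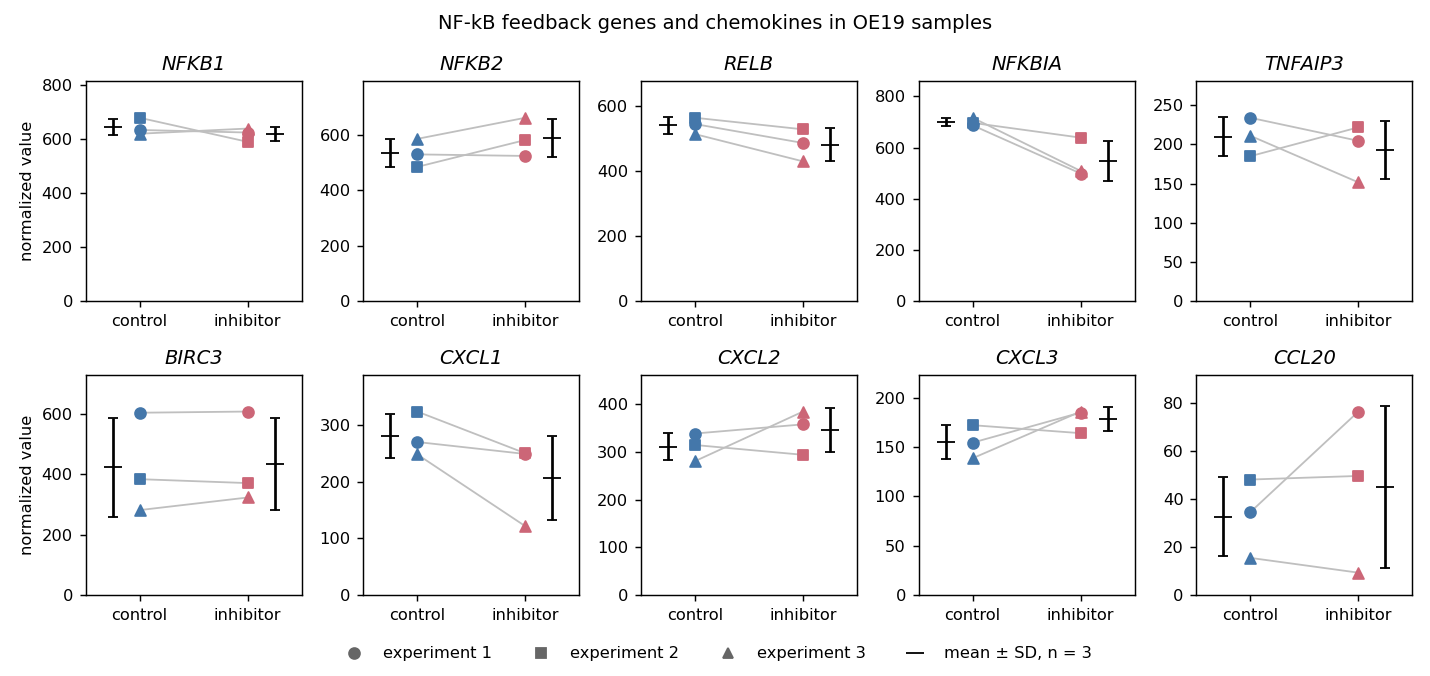
Normalized values of the 10 members in each sample; the vertical axis is the deposited normalized value, starting at 0 with its own scale for each gene, symbols mark the experiment, grey lines join the samples of 1 experiment, and bars give the mean ± SD of each group (n = 3). NFKBIA is the only gene whose inhibitor samples (498.6 to 638.6) all lie under its control samples (686.8 to 716.3). BIRC3 keeps the order of the experiments in both groups, as do RELB and CXCL1 with another order.

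NFKBIA (ENSG00000100906, chr14:35401513-35404749) encodes IkB-alpha, which binds NF-kB dimers, keeps them out of the nucleus and is made anew when NF-kB is active. Its values were 686.8, 696.4 and 716.3 in the control samples of experiments 1 to 3, and 498.6, 638.6 and 508.6 in the inhibitor samples. The control samples lay close together, whereas the inhibitor samples were more spread, with the second nearest to the controls, and the groups did not overlap. The means were 699.8 ± 15 and 548.6 ± 78.1 (SD, n = 3 each). The log2 difference was -0.36 ± 0.14 (SE), with a 95% interval of -0.68 to -0.036, an unadjusted limma p of 0.0339 and an adjusted p of 0.899. Within experiments 1, 2 and 3 it was -0.46, -0.12 and -0.49, so NFKBIA was lower in 3 of 3. It was the 1 member of 10 with an unadjusted p under 0.05 and the 1 member with groups that did not overlap. Over all tested genes, 2.9% had inhibitor samples entirely under the controls and 5.61% had groups that did not overlap in either direction. Its unadjusted limma p was 0.0797, 0.0902 or 0.0916 without the first, the second or the third control sample and 0.0973 without the first inhibitor sample. Without the third inhibitor sample, which stood apart, the log2 difference was -0.31 (limma, unadjusted p = 0.0468, adjusted p = 0.974).

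TNFAIP3 (ENSG00000118503, chr6:137866349-137883312) encodes A20, a ubiquitin-editing enzyme that takes signalling complexes upstream of NF-kB apart and is itself induced by NF-kB. It was at 233.8, 184.8 and 210.9 in the control samples and at 204.4, 221.6 and 151.5 in the inhibitor samples. The groups overlapped, the lowest value being that of the third inhibitor sample. Its log2 difference was -0.14 ± 0.20 (SE), with a 95% interval of -0.61 to 0.34 (limma, adjusted p = 0.901). It was -0.19, 0.26 and -0.47 within experiments 1 to 3, so the experiments did not share a direction, and it was 0.027 without the third inhibitor sample. TNFAIP3 has exons that overlap WAKMAR2 on the opposite strand. The libraries were stranded, but the strand setting of the counting is not given in the sources used here.

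NFKB1 (ENSG00000109320, chr4:102501359-102617302) encodes p105, which is cut to the p50 subunit. Its values were 635.1, 680.4 and 621.2 in the control samples and 625.6, 591.0 and 640.4 in the inhibitor samples. These 6 values overlapped within a narrow range, and the log2 difference of -0.06 ± 0.12 (SE) had the shortest 95% interval of the members, from -0.33 to 0.21 (limma, adjusted p = 0.916).

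NFKB2 (ENSG00000077150, chr10:102394110-102402529) encodes p100, the precursor of the p52 subunit of the alternative NF-kB pathway and an inhibitor of RELB while uncut. It was at 530.0, 484.9 and 586.0 in the control samples and at 524.4, 581.9 and 662.2 in the inhibitor samples. The third experiment held the highest value of each group, and the groups overlapped. The log2 difference was 0.14 ± 0.14 (SE), with a 95% interval of -0.20 to 0.48 (limma, adjusted p = 0.899). It was 0.054 without the third inhibitor sample and 0.074 without the second control sample.

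RELB (ENSG00000104856, chr19:45001464-45038192) encodes the Rel protein that pairs with p52. Its values were 545.6, 565.0 and 514.7 in the control samples and 487.3, 529.3 and 430.7 in the inhibitor samples. RELB was the lower of the pair in 3 of 3 experiments, with differences of -0.16, -0.09 and -0.26, although the highest inhibitor sample lay above the lowest control sample. The log2 difference was -0.17 ± 0.13 (SE), with a 95% interval of -0.48 to 0.14 (limma, adjusted p = 0.899). It was -0.092 without the third inhibitor sample.

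BIRC3 (ENSG00000023445, chr11:102317484-102339403) encodes cIAP2, a ubiquitin ligase of the TNF receptor complex that protects cells from death and is induced by NF-kB. Its values were 603.1, 383.4 and 281.1 in the control samples and 607.0, 370.4 and 322.8 in the inhibitor samples. The first experiment was the highest and experiment 3 the lowest in both groups, and within an experiment the control and inhibitor samples lay close together. The log2 difference between treatments was 0.053 ± 0.33 (SE), with a 95% interval of -0.73 to 0.83 (limma, adjusted p = 0.974). That SE holds the spread between experiments. With the experiment as a replicate block it was 0.14 (limma, adjusted p = 0.923). The value in experiment 1 was 2.15 times that in experiment 3 among the controls and 1.88 times among the inhibitor samples. A limma F test between the 3 experiments, with the treatment in the model, gave an unadjusted p of 0.00429 and an adjusted p of 0.782 for BIRC3. BIRC3 overlaps an exon of ENSG00000288528 on the opposite strand. Its relatives BIRC2 and XIAP, which are not classed as NF-kB feedback genes here, had log2 differences of 0.13 ± 0.13 and 0.058 ± 0.14 (SE).

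CXCL1 (ENSG00000163739, chr4:73869393-73871308), like CXCL2 and CXCL3, encodes a chemokine that attracts neutrophils through the receptor CXCR2. It was at 269.9, 323.6 and 248.1 in the control samples and at 248.8, 250.0 and 121.4 in the inhibitor samples. The third inhibitor sample, at 0.486 times the median of the other samples, was far below the rest, and the first and the second inhibitor samples overlapped with the controls. The means were 280.5 ± 38.9 and 206.7 ± 73.9 (SD, n = 3 each), and the log2 difference was -0.50 ± 0.30 (SE), the largest estimate in size among the members. Its 95% interval of -1.21 to 0.20 included 0 (limma, unadjusted p = 0.134, adjusted p = 0.899). CXCL1 was lower in 3 of 3 experiments, with differences of -0.12, -0.37 and -1.02, and the difference was -0.16 without the third inhibitor sample. With the experiment as a replicate block, the SE was 0.23 and the limma p 0.0722 (adjusted p = 0.848).

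CXCL2 (ENSG00000081041, chr4:74097040-74099195) was at 338.0, 314.0 and 280.1 in the control samples and at 357.2, 293.5 and 384.0 in the inhibitor samples. The third inhibitor sample, the lowest for CXCL1, was the highest for CXCL2. For CXCL2 the log2 difference was 0.15 ± 0.16 (SE), with a 95% interval of -0.23 to 0.52 (limma, adjusted p = 0.899). It was 0.063 without the third inhibitor sample and 0.073 without the third control sample.

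CXCL3 (ENSG00000163734, chr4:74036589-74038689) was at 154.3, 172.0 and 138.5 in the control samples and at 184.8, 163.9 and 185.8 in the inhibitor samples. The inhibitor sample was higher in experiments 1 and 3 and lower in experiment 2, as for CXCL2. For CXCL3 the log2 difference was 0.20 ± 0.17 (SE), with a 95% interval of -0.19 to 0.60 (limma, adjusted p = 0.899). The 3 chemokine genes are close copies: over 324 bases of coding sequence, CXCL1 and CXCL2 were 93.5% identical, CXCL2 and CXCL3 94.4%, and CXCL1 and CXCL3 90.7%. How reads that fit more than 1 of them were counted is not given in the sources used here, so the split of counts among CXCL1, CXCL2 and CXCL3 is uncertain.

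CCL20 (ENSG00000115009, chr2:227813842-227817556) encodes the ligand of CCR6, which draws lymphocytes and dendritic cells to mucosal surfaces. Its values were low, at 34.5, 48.1 and 15.5 in the control samples and at 76.4, 49.6 and 9.34 in the inhibitor samples. The third experiment was low in both groups, and the first inhibitor sample was the highest of the 6. The log2 difference was 0.17 ± 0.79 (SE), and its 95% interval of -1.67 to 2.00 was the widest of the members (limma, adjusted p = 0.966). It was 1.13, 0.04 and -0.67 within experiments 1 to 3, so the experiments disagreed in sign. Leaving out 1 sample moved it from -0.42 (without the first inhibitor sample) to 1.03 (without the third), and DESeq2 gave 0.47. The F test between experiments gave an unadjusted limma p of 0.0209 and an adjusted p of 0.782 for CCL20. With the experiment as a replicate block, the SE of its treatment difference was 0.44 in place of 0.79 (limma, adjusted p = 0.924).

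**Figure D3:**
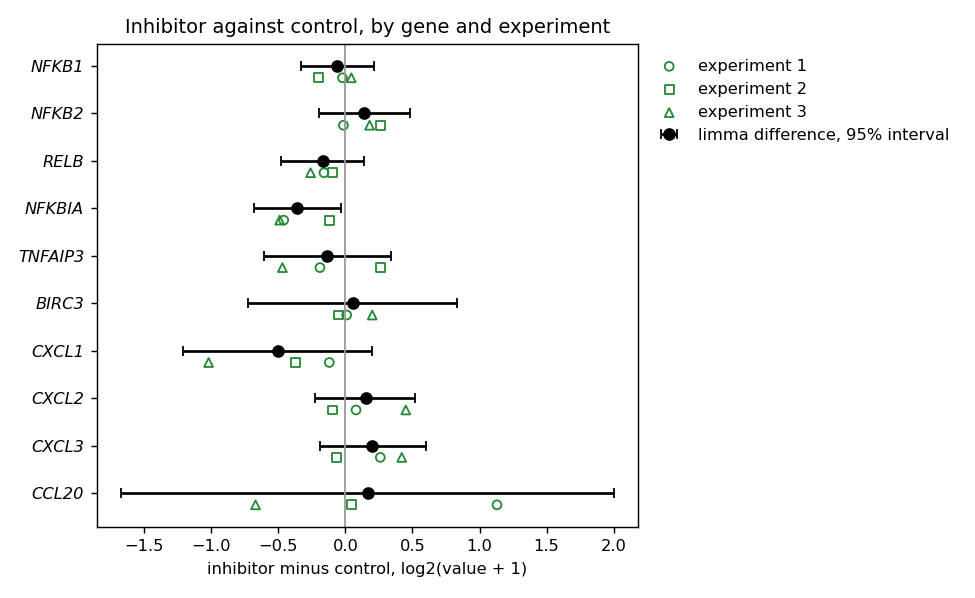
Differences between inhibitor and control samples for the 10 members; the horizontal axis is inhibitor minus control in log2(value + 1), black points and bars are limma differences with 95% intervals, and open symbols are the differences within each of the 3 experiments. The interval of NFKBIA (-0.68 to -0.036) is the only one that leaves out 0 before adjustment, and CCL20 has the widest.

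Over the 10 members the median log2 difference was -0.0037, against -0.0035 over all tested genes. It was -0.098 over the 6 subunits and feedback regulators and 0.16 over the 4 chemokines. The chemokine median was -0.15 without the first inhibitor sample and -0.10 without the third control sample, so its sign rested on those samples. The median of the other 6 ran from -0.18 to -0.029 when 1 sample was left out. RELB, NFKBIA and CXCL1 were lower in the inhibitor sample of each experiment, and no member was higher in all 3. The share of all tested genes that kept 1 direction in all 3 was not counted, so nothing is read from this. The count of members with an unadjusted p under 0.05, 1 of 10, is to be read beside the 0.935% of all genes, and it rests on NFKBIA alone.

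Between experiments, 2 of 10 members (BIRC3 and CCL20) had an unadjusted p under 0.05 in the limma F test, against 620 of 12723 genes (4.87%), and no gene passed after adjustment (0%). This test was added after the values had been seen. With 1 sample left out, 1 experiment holds only 1 sample. Such a fit cannot tell a difference between experiments from a departure of that sample. Without the third control sample, experiment 3 is only the third inhibitor sample, which stood apart. The member count was 1 without the first control sample, 0 without the first inhibitor sample, and 2 or 3 without any other sample. BIRC3 had unadjusted p-values of 0.0825 and 0.065 in those fits. Without the third control sample 3 of 10 members (BIRC3, CXCL1 and CCL20) passed after adjustment (limma, adjusted p of 0.00177, 0.00477 and 0.00459), but so did 40.5% of all genes in that fit, with 51.4% under 0.05 before adjustment. Without the third inhibitor sample 1 of 10 passed (BIRC3, adjusted p of 0.0105), against 4.12% of all genes, with 22.3% under 0.05 before adjustment. CXCL8, which encodes interleukin-8 and is a relative of CXCL1 outside the list, was at 245.3, 169.8 and 59.9 in the control samples and at 314.9, 165.0 and 61.2 in the inhibitor samples. It thus had the same order of experiments as BIRC3 in both groups, with an experiment 1 value 4.09 times that of experiment 3 among controls and 5.14 times among inhibitor samples. Its F test p was 0.0005 (adjusted p = 0.782), and its log2 difference between treatments was 0.12 ± 0.69 (SE, limma, adjusted p = 0.974). That SE was 0.19 with the experiment as a replicate block (limma, adjusted p = 0.881). Fits with 1 sample left out carry the same limit for CXCL8. LCN2, a secreted iron-scavenging protein and another NF-kB target, had a different order, at 1481.0, 1105.5 and 2047.5 in the controls and 1549.6, 1107.1 and 2738.9 in the inhibitor samples, highest in experiment 3 in both groups (limma F test, unadjusted p = 0.00304, adjusted p = 0.782). PTGS2, a further target, had the order of BIRC3 and CXCL8. It was at 247.0, 152.7 and 34.1 in the controls and at 184.8, 136.6 and 71.6 in the inhibitor samples (limma F test, unadjusted p = 0.00789, adjusted p = 0.782). CXCL8, LCN2 and PTGS2 were the 3 of 21 other NF-kB target genes tested with an unadjusted p under 0.05, against 4.87% of all genes. Of these, LCN2 alone had another order. In the other pathway lists the count in this F test was 1 of 5 ligands, 1 of 16 receptors and 1 of 29 signalling adaptors and kinases. It was 1 of 18 other Rel proteins and inhibitors, and 0 of 1 chemokine receptors. Among the 11 columnar markers tested, only the keratin gene KRT18 had an unadjusted F test p under 0.05 (0.00386), with the order of BIRC3.

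The remaining genes of the pathway were taken from lists chosen by function. None of them had an unadjusted p under 0.05, so the pair with the smallest p is named for each list. Of 17 ligands upstream of NF-kB, 6 were in the table and 5 were tested, 2 higher and 3 lower, with a median log2 difference of -0.35. The TNF family ligands TNFSF15 and TNFSF13B had differences of -0.69 ± 0.51 and -0.35 ± 0.35 (SE), and TNF itself was not listed. Within experiments 1 to 3 the difference was -0.20, 0.44 and -2.30 for TNFSF15. For TNFSF13B it was 0.17, -0.075 and -1.16, so both estimates leaned on experiment 3. Of 22 receptors, 17 were in the table and 16 were tested, 6 higher and 10 lower (median -0.17). TLR4, the receptor for bacterial lipopolysaccharide, was at 294.6, 384.5 and 632.6 in the control samples and at 197.2, 485.8 and 92.4 in the inhibitor samples, a difference of -1.0 ± 0.58 (SE, limma, unadjusted p = 0.123). IL1RAP, the shared subunit of interleukin-1 family receptors, was at 186.3, 184.8 and 173.6 against 148.7, 154.8 and 148.4. IL1RAP values did not overlap between the groups, with a difference of -0.27 ± 0.15 (SE, limma, unadjusted p = 0.123, adjusted p = 0.899).

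Downstream of the receptors, 29 of 30 signalling adaptors and kinases were in the table and all 29 were tested, 15 higher and 14 lower (median 0.0048). IRAK1, a kinase of the interleukin-1 and Toll-like receptor pathway, had a difference of -0.56 ± 0.42 (SE). CHUK, which encodes the IkB kinase IKK-alpha, had a difference of -0.57 ± 0.47 (SE). In both, the third inhibitor sample was far below the rest, at 3885.7 for IRAK1 against 10939.0 to 12817.1 in the other samples, and at 144.3 for CHUK against 486.6 to 555.6. Of the other Rel proteins and inhibitors, 18 of 20 were in the table and tested, 12 higher and 6 lower (median 0.047). TNIP1, an A20-binding inhibitor of NF-kB, was at 743.4, 644.1 and 637.7 in the control samples and at 838.3, 742.8 and 861.4 in the inhibitor samples. TNIP1 was higher in 3 of 3 experiments, with a difference of 0.27 ± 0.13 (SE, limma, unadjusted p = 0.0705, adjusted p = 0.899). NFKBIE, CYLD and TRIB3 of this list were also higher in 3 of 3, and NFKBIB was lower in 3 of 3. The share over all genes was not counted. OTULIN, which removes linear ubiquitin chains, had a difference of -0.23 ± 0.17 (SE). RELA, the main activating subunit, differed by 0.14 ± 0.13 and REL by -0.47 ± 0.55 (SE).

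Among other NF-kB target genes, 22 of 40 were in the table and 21 were tested, 15 higher and 6 lower (median 0.14). IER3, an immediate early gene of stress and NF-kB signalling, was at 1301.3, 1411.0 and 1298.2 in the control samples and at 1179.0, 1287.3 and 841.7 in the inhibitor samples. IER3 values did not overlap between the groups, with a difference of -0.30 ± 0.17 (SE, limma, unadjusted p = 0.128, adjusted p = 0.899). IRF1, an interferon and NF-kB responsive transcription factor, differed by 0.59 ± 0.37 (SE), and the lowest of its samples was the control of experiment 3, at 74.4. Of 6 chemokine receptors and decoys, only CXCR4, the receptor for CXCL12, was in the table, with a difference of -0.57 ± 0.44 (SE). Within experiments 1 to 3 that difference was -0.22, 0.11 and -1.60. CXCR2 and CCR6, the receptors for the chemokines described here, were not listed, nor were CXCL5 and CXCL6. IL1RAP and IER3 were the only tested genes of these lists with groups that did not overlap, against 5.61% of all genes.

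**Figure D4:**
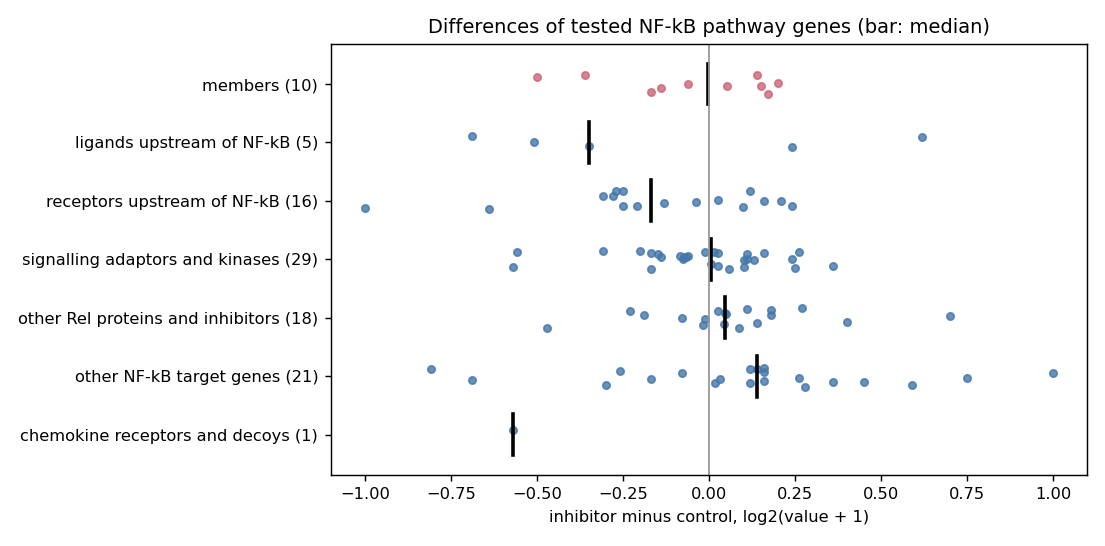
Log2 differences of every tested gene in the members and the NF-kB pathway lists; the horizontal axis is inhibitor minus control in log2(value + 1), each point is 1 gene, black bars are medians, and the number of tested genes stands in brackets. The members range from -0.50 to 0.20 around a median of -0.0037, and the list medians run from -0.57 for the single chemokine receptor to 0.14 for other target genes.

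The members did not share 1 pattern over the 6 samples. As a description, Pearson's r was taken between pairs of members, over samples that share experiments. It ran from -0.89 (NFKB2 with CXCL1) to 0.94 (RELB with CXCL1), and NFKBIA had -0.80 with CXCL2 and -0.82 with CXCL3. The third inhibitor sample, which stood apart, was the highest of the 6 for NFKB2 and the lowest for RELB and CXCL1. These r values were not computed without it. The average of the members, each centred on its own mean, therefore describes no single gene. This average was 0.13, 0.11 and -0.16 in the control samples and 0.18, 0.064 and -0.32 in the inhibitor samples, on the log2 scale, so both samples of the third experiment were lowest. It leans on CCL20, whose values spread the most. Over the 6 samples and 11086 genes compared, DGCR2 (Pearson r = 0.997), TAX1BP3 (0.995), TRIP12 (0.995), CMPK1 (0.995) and MRPL3 (0.994) had the profiles most like it. These correlations are over samples that share experiments and are given without a test.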

How the data were processed

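Messenger RNA of 6 OE19 samples was analysed from 1 table, with groups taken from the sample titles. The members and gene lists were chosen with earlier results of these data known. Libraries were made with a TruSeq Stranded mRNA kit and sequenced as read pairs. Per the submitters' processing notes and the study's methods, reads were trimmed with cutadapt 1.8, examined with FastQC 0.11.8 and aligned with STAR 2.7.0f to GRCh38. The table holds a deposited signal for each gene, which the authors made with EDASeq, adjusting counts within a sample for length and GC content, and then scaled by DESeq2 size factors. The reference was GENCODE GRCh38, and neither its release nor the counting tool is given in the sources used here. Dividing each column by its smallest value above 0 gave whole numbers for 100% of values (within 1e-06). These are adjusted counts and not reads. The EDASeq option is not given in the sources used here. If the counts were set by rank within a bin, the size of a fold depends on the spacing of ranks. Depth in reads is unknown, and no counting intervals were given.

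The 12723 of 13345 genes whose mean value was 10 or more entered limma 3.58.1 (R 4.3.3) as log2(value + 1), eBayes with trend, two-sided, with Benjamini-Hochberg adjustment at 0.05. The pseudocount of 1 understates changes of low genes. DESeq2 1.42.0 and edgeR 4.0.16 on the whole numbers were alternatives. The exact Mann-Whitney test cannot give a p below 0.1 with 3 against 3. All members and the listed relatives present were named, with the 2 genes of smallest unadjusted p per list and the 5 genes most alike in profile. The series numbers 3 shared experiments, read as a pairing. Between the samples of 1 experiment, deviations from the group mean correlated at 0.21, 0.15 and -0.00 across genes, against -0.38 to 0.23 between samples of different experiments, so the values do not set the pairs apart, and the number served as a replicate block in an alternative. Gene coordinates and promoters are RefSeq, GRCh38.p14. Coding sequences came from GENCODE transcripts lifted to GRCh37. Protein sequences were not used here. A leukocyte marker of the list is not reported here.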

Additional observations from a re-analysis of the deposited data

How the results depend on the processing

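Under each of the alternatives run (TMM rescaling, pseudocounts of 0.5 and 10, no filter, a filter at a mean value of 50, the replicate block, no trend, sample weights, DESeq2, edgeR and each sample left out), 0 genes and 0 members passed the adjusted threshold. The exact Mann-Whitney test also gave 0, but it cannot give a p below 0.1 with 3 against 3, so nothing is read from it. The lowest adjusted p of a member was 0.468, for NFKBIA without the second inhibitor sample, a fit in which 1360 genes had an unadjusted p under 0.05, against 43 without the third control sample and 119 with all samples. The replicate block changed no call: 128 genes had an unadjusted p under 0.05, and NFKBIA had an unadjusted p of 0.0488 (limma, adjusted p = 0.848). NFKBIA was under 0.05 before adjustment in 12 of 16 alternatives that gave it a p from limma, DESeq2 or edgeR. Most of these reuse the same 6 samples and are not separate support. With 1 sample left out, its unadjusted limma p ran from 0.0101 to 0.0973. The member median ran from -0.18 (without the first inhibitor sample) to 0.042 when 1 sample was left out, and was -0.17 without the third control sample. TNFAIP3 changed sign with sample weights (0.068). With 1 sample left out, TNFAIP3 ran from -0.25 to 0.027, BIRC3 from -0.22 to 0.34 and CCL20 from -0.42 to 1.03. CCL20 was not tested under the filter at 50. Depth in reads is unknown, so its effect on these values could not be measured.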
